A study of Mus musculus with 6 samples.

Results

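The AP-1 transcription factor family was examined in CD4+CD8+ double-positive (DP) thymocytes of WT and NSrp70-cKO mice. The 8 genes were taken by name, with earlier results of these data known, out of the 23183 gene symbols with a value in every library. *Jun*, *Junb* and *Jund* encode the Jun proteins, *Fos*, *Fosb* and *Fosl2* encode Fos proteins, and *Batf* and *Atf3* encode smaller partners of the same basic leucine zipper (bZIP) kind. All mice were C57BL/6 and 6 weeks old, and the thymus was the source of the cells. The WT group had the genotype NSRP1f/f, in which *Nsrp1*, the gene of the splicing regulator NSrp70, was flanked by loxP sites but not deleted. The NSrp70-cKO group had the genotype NSRP1f/fCD4Cre, in which Cre recombinase driven by *Cd4* sequences removes the flanked segment from the stage at which thymocytes begin to express CD4. There were 3 mRNA-seq libraries per genotype. The loxP allele was thus common to both groups, and the Cre transgene went with the deletion, so an effect of Cre itself and of the loss of NSrp70 cannot be told apart. Whether each library came from 1 mouse or from pooled mice was not given in the sources used here, so the p-values measure the spread between libraries, which may be technical.

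AP-1 is a dimer of bZIP proteins. Jun proteins pair with each other or with Fos, Batf or Atf proteins, whereas Fos proteins and Batf need a partner, and the dimers bind short DNA elements in promoters and enhancers. In T lineage cells, T cell receptor signals induce *Fos* through the Ras and ERK pathway and serum response factor, and Jun proteins are phosphorylated by JNK, so that AP-1 together with NFAT drives activation genes such as *Il2*. Many AP-1 mRNAs are immediate early transcripts, which are made within minutes of a signal and are short-lived.

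Promoter sequences of *Fos*, *Fosb*, *Jun* and *Junb*, the 4 Jun and Fos genes with a match to a CRE core or variant in the window, are shown as the 250 bases before the RefSeq transcription start on GRCm38.p6, 5′ to 3′ on the strand of the gene. The windows are chr12:85473640-85473889 on the plus strand for *Fos*, chr7:19310046-19310295 on the minus strand for *Fosb*, chr4:95052223-95052472 on the minus strand for *Jun* and chr8:84978749-84978998 on the minus strand for *Junb*. Capitals mark TGACG, the core of the cAMP response element (CRE), TGACATCA, a variant of the CRE, and TATAAA.
Fos: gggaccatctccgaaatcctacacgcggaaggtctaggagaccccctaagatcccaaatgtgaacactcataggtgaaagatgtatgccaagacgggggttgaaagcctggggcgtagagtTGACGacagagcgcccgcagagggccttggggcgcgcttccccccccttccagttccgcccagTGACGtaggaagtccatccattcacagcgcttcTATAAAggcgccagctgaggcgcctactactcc
Fosb: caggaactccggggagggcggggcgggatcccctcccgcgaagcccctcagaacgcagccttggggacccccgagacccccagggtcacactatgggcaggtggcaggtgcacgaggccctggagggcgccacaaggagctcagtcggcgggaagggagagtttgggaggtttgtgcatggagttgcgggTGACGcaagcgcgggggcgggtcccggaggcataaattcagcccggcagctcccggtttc
Jun: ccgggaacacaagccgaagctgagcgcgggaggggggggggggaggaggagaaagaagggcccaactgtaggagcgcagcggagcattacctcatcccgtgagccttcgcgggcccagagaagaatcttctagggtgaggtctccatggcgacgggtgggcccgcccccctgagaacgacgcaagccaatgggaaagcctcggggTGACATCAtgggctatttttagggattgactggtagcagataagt
Junb: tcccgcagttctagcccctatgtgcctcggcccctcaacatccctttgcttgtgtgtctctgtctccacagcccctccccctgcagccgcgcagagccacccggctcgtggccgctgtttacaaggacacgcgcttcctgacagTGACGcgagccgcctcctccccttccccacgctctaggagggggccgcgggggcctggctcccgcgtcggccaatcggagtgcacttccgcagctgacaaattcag

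The 8 windows were searched on both strands. The RefSeq window of *Jund*, chr8:70697489-70697738, lies well upstream of the GENCODE start given below, so it may not be the measured transcript's promoter. The window of *Fosl2*, chr5:32136222-32136471, lies downstream of the GENCODE start, inside the annotated gene, so the same holds for it. For both, the absence of a match here says little. The window of *Atf3* lies inside the gene span given below, at the start of its main transcript. TGACG was present in 5 of the 8, and it was present in 17.8% of the 32851 mouse promoter windows of that length. It was more common among tested genes with a window, of which 2618 had it and 5305 did not. The 17.8% is thus a low reference for expressed genes. It lay in *Fos* from -129 to -125 and from -66 to -62 relative to the start, in *Fosb* from -60 to -56, in *Junb* from -106 to -102, in *Batf* from -98 to -94, and in *Atf3*, as CGTCA, from -7 to -3. This search was added after the sequences had been seen. *Jun* had TGACATCA from -45 to -38, a variant present in 2.93% of windows. *Fos* had TATAAA from -33 to -28, present in 12.4% of windows. The full CRE, TGACGTCA, which contains the core, the AP-1 element TGANTCA and the CArG box to which serum response factor binds were not found in the 8 windows, and were present in 1.55%, 6.75% and 1.47% of all windows. The serum response element for which *Fos* is known lies further upstream than the window. A match describes letters in a window and not a bound site.

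*Fos* and *Fosl2* mRNAs are the members whose 3′ UTR held the nonamer TTATTTATT, a core of AU-rich elements that mark short-lived mRNAs, here shown in capitals with 8 flanking bases on each side. The *Fos* site is at chr12:85477105-85477129 and the *Fosl2* site at chr5:32156873-32156897, both on the plus strand of GRCm38.
Fos: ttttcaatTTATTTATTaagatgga
Fosl2: ttattttaTTATTTATTttaaatgt
The nonamer was present in 7.92% of the 9838 3′ UTRs of tested protein-coding genes.

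The levels are FPKM, mapped fragments scaled by transcript length and by library depth, as the authors computed them. The depth estimated from the steps between low FPKM values was 20.6 to 20.8 M fragments (M, mega) in WT and 13.1, 20.7 and 17.4 M in cKO 1, 2 and 3. The 3 WT libraries resembled each other closely, since the variance between 2 of them was 1.502 to 1.61 times that of counting. Between 2 cKO libraries it was 27.2 to 61.9 times that of counting. It is not known that the WT libraries are 3 independent samples, so WT is given by its mean and range, and each test was repeated with WT averaged and counted as 1 sample. Among the cKO libraries, cKO 2 stood apart for the immediate early genes described below. *Nsrp1*, listed under its older symbol *Ccdc55*, had an FPKM of 20.2, 20.7 and 21.1 in WT and 17.7, 15.8 and 15.0 in cKO (log2 fold change -0.34, limma adjusted p = 0.00675). A level summed over a whole gene does not check the deletion of single exons. *Xist* was at 69.8 to 72.0 in WT and 4.07 to 5.44 in cKO, while *Ddx3y*, *Eif2s3y*, *Kdm5d* and *Uty* of chromosome Y were at 0 in WT and at 5.83 to 43.8 in cKO. Sex markers thus separated the same libraries as the genotype, and for every AP-1 difference below sex and genotype cannot be told apart.

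All 8 AP-1 genes had lower values in the 3 NSrp70-cKO libraries than in the 3 WT libraries. Of the tested genes, 33.3% had all 3 cKO values below all 3 WT values and 39.2% had all 3 above. Genes were tested with limma on log2(FPKM + 1) if they reached an FPKM of 1 in at least 3 libraries, and 7 of the 8 AP-1 genes did so. *Fosb* and *Fosl2* reached it in the WT libraries alone, so they had to be lower in cKO to be tested as they were, and their calls add nothing to a count. The 5 others reached an FPKM of 1 in all 6 libraries. Each of these 5, *Fos*, *Jun*, *Junb*, *Jund* and *Batf*, had an adjusted p under 0.05, with the lower level in cKO. Among all 10326 genes tested, 29.8% were lower and 35.8% higher at that threshold.

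**Figure D1:**
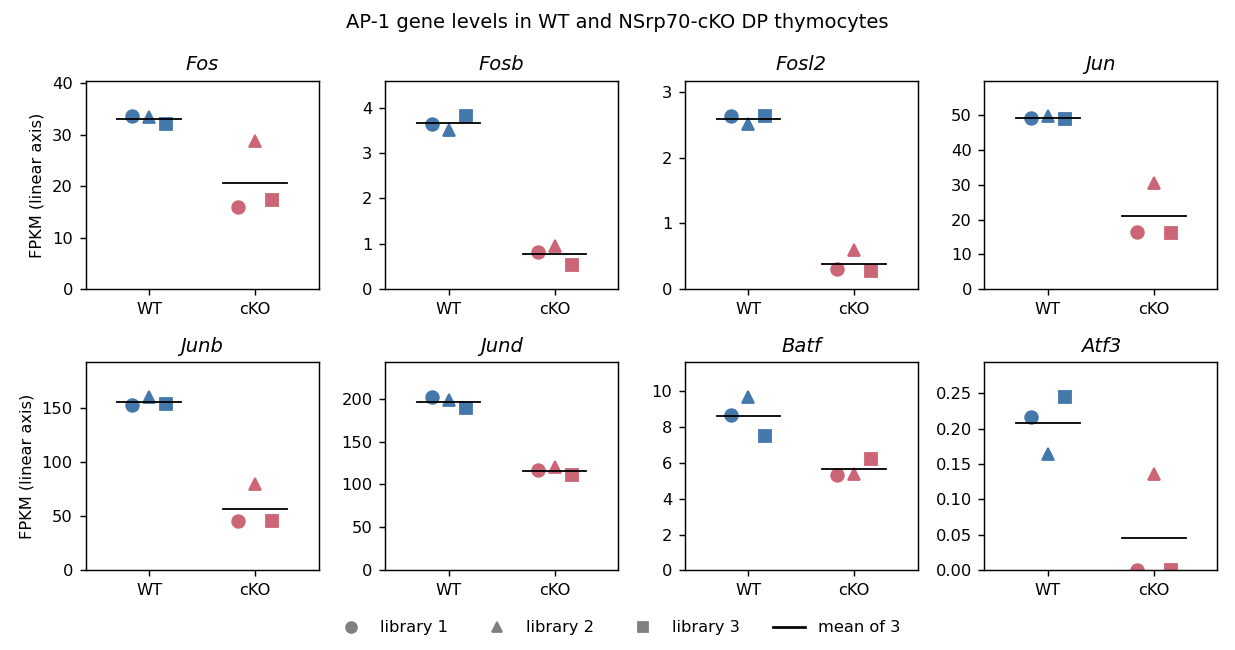
FPKM (linear axis, own scale per panel) of the 8 AP-1 genes in each of the 3 WT and 3 NSrp70-cKO libraries, with the mean of 3 as a line and the symbol giving the library number. In every panel the 3 cKO points lie under the 3 WT points, and cKO 2, the triangle, lies above the other cKO libraries for *Fos*, *Fosb*, *Fosl2*, *Jun*, *Junb*, *Jund* and *Atf3*.

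*Junb* encodes a Jun protein that is a weaker activator than c-Jun and can oppose it. The gene lies at chr8:84974484-84978718 on the minus strand, and its main transcript has 1 exon. It had an FPKM of 153, 160 and 153 in WT and of 45.3, 79.5 and 46.0 in cKO 1, 2 and 3. No cKO library reached the lowest WT value, but cKO 2 kept 51.1% of the WT mean while cKO 1 and cKO 3 kept 29.1% and 29.6%. The mean fell 2.73-fold, from 156 to 57.0 ± 19.5 (SD, n = 3). The log2 fold change was -1.48 (SE 0.20, limma adjusted p = 0.000828), at rank 95 of 10326 from the most negative. The span of *Junb* overlaps *Prdx2*, a peroxiredoxin gene on the other strand, although the main *Junb* exon does not. *Prdx2* went the other way (log2 fold change 0.75, limma adjusted p = 0.00163).

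*Jun* encodes c-Jun, the main transactivating partner of Fos. It is a gene of 1 exon at chr4:95049034-95052222 on the minus strand. Its FPKM was 49.3, 49.9 and 48.9 in WT and 16.5, 30.5 and 16.1 in cKO. The WT values spanned about 1 FPKM, and cKO 2 again lay between the WT and the other cKO libraries, at 61.8% of the WT mean. The mean fell from 49.4 to 21.1 ± 8.21 (SD, n = 3), 2.35-fold. The log2 fold change was -1.25 (SE 0.22, limma adjusted p = 0.00229). With WT counted as 1 sample the adjusted p of *Jun* was 0.0543.

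*Jund* encodes JunD, which is expressed in many resting cells and restrains proliferation in several cell types. It is a gene of 1 exon at chr8:70698949-70700616 on the plus strand. It was the most abundant AP-1 mRNA in every library, with an FPKM of 202, 198 and 189 in WT and of 117, 121 and 111 in cKO. The cKO values were close to each other, and cKO 2 did not stand apart. The mean fell from 197 to 116 ± 4.89 (SD, n = 3), 1.69-fold, and the log2 fold change was -0.75 (SE 0.069, limma adjusted p = 0.000222). The exons of *Jun* and *Jund* overlap the antisense genes *Junos* and *Gm11175*. Although the library kit keeps the strand, whether strand was used in counting was not given in the sources used here, so their levels are uncertain to that extent.

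*Fos* encodes c-Fos, the immediate early partner of c-Jun, and lies at chr12:85473890-85477273 on the plus strand. It had an FPKM of 33.7, 33.4 and 32.1 in WT and of 16, 28.7 and 17.3 in cKO. In cKO 2 it was at 86.8% of the WT mean, and in cKO 1 and cKO 3 at 48.4% and 52.2%. The mean fell from 33.1 to 20.7 ± 6.998 (SD, n = 3), 1.601-fold. The log2 fold change was -0.70 (SE 0.20, limma adjusted p = 0.0161), with the highest adjusted p of the 7 genes tested. The adjusted p was 0.0505 without cKO 1 (log2 fold change -0.55), 0.0694 without cKO 3 (-0.60) and 0.143 with WT counted as 1 sample. Without cKO 2 the log2 fold change was -0.94.

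*Fosb* and *Fosl2*, the latter encoding Fra-2, were expressed at lower levels. *Fosb*, at chr7:19302696-19310051 on the minus strand, had an FPKM of 3.65, 3.51 and 3.82 in WT and of 0.818, 0.958 and 0.538 in cKO, and its cKO mean of 0.771 ± 0.214 (SD, n = 3) was 4.75-fold lower than that of WT. *Fosl2*, at chr5:32135801-32157842 on the plus strand, had an FPKM of 2.64, 2.51 and 2.64 in WT and of 0.303, 0.592 and 0.268 in cKO, and its cKO mean of 0.388 ± 0.178 (SD, n = 3) was 6.70-fold lower. These were the largest ratios of means among the 7 AP-1 genes tested. The added 1 in log2(FPKM + 1) shrinks changes at such levels, and the log2 fold changes were -1.40 (SE 0.11, limma adjusted p = 0.000146) for *Fosb* and -1.38 (SE 0.11, limma adjusted p = 0.00015) for *Fosl2*. With the estimated depth these cKO values correspond to about 38, 71 and 34 fragments for *Fosb* and 25, 78 and 30 for *Fosl2*, so counting error alone is a sizeable part of each value.

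*Batf* encodes a small bZIP protein without a transactivation domain, which pairs with Jun proteins and, in mature T cells, with IRF4. It lies at chr12:85686669-85709087 on the plus strand. It had an FPKM of 8.67, 9.68 and 7.51 in WT and of 5.31, 5.39 and 6.23 in cKO. The gap between the lowest WT and the highest cKO library was narrower than the range of WT, and *Batf* was the 1 tested AP-1 gene that was not highest of the cKO libraries in cKO 2. The mean fell from 8.62 to 5.64 ± 0.506 (SD, n = 3), 1.53-fold, and the log2 fold change was -0.53 (SE 0.10, limma adjusted p = 0.00365). With WT counted as 1 sample the adjusted p was 0.0767.

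*Atf3*, a stress-induced gene at chr1:191170296-191218039 on the minus strand, was barely detected. It had an FPKM of 0.216, 0.163 and 0.244 in WT, was listed at 0 in cKO 1 and cKO 3 and was at 0.136 in cKO 2. These values correspond to about 8, 6 and 9 fragments in WT and 5 in cKO 2. *Atf3* therefore did not enter the test. Without the filter, where 22% of 16452 genes were lower at an adjusted p under 0.05, it had a log2 fold change of -0.21 (limma adjusted p = 0.0287), a value set largely by the pseudocount of 1. At this depth a difference in *Atf3* rests on a few fragments per library.

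The order of the levels was *Jund*, *Junb*, *Jun*, *Fos*, *Batf*, *Fosb*, *Fosl2* and *Atf3* in both genotypes, FPKM being a level per transcript length. In WT no neighbours in this order overlapped in their ranges. In cKO, *Jun* (16.1 to 30.5) and *Fos* (16 to 28.7) overlapped, as did *Fosb* (0.538 to 0.958) and *Fosl2* (0.268 to 0.592).

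The size of the log2 fold changes depended on the processing, but their direction was the same in every alternative run. Quantile normalization gave -1.83 for *Junb* and -1.17 for *Jund*. Equal FPKM totals for all libraries gave -2.04 and -1.31, but also moved the median of all genes tested from 0.039 to -0.45 and left 59.9% of them called lower. Removing the trend with base composition (GC content) and transcript length brought *Junb* to -1.11, *Jun* to -0.91, *Fosb* to -0.96, *Fosl2* to -1.01 and *Jund* to -0.46, and took *Fos* to -0.79 and *Batf* to -0.68. A pseudocount of 0.1 in place of 1 gave -2.53 for *Fosl2* and -2.14 for *Fosb*, larger decreases than that of *Junb* under the same pseudocount, so which gene had the largest decrease on the log2 scale depended on the pseudocount. Counting WT as 1 sample, 2 of the 5 genes that passed the filter in all libraries, *Junb* (0.0383) and *Jund* (0.0446), kept an adjusted p under 0.05 from limma, where 8.73% of all genes tested were called lower. *Fosb* and *Fosl2*, tested through WT alone, had 0.0294 each. Without cKO 2, 5 of these 5 were called lower, against 34.4% of genes. Of the 5, *Jun* and *Junb* were called lower with a log2 fold change of -1 or less, as were 4.71% of genes.

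**Figure D2:**
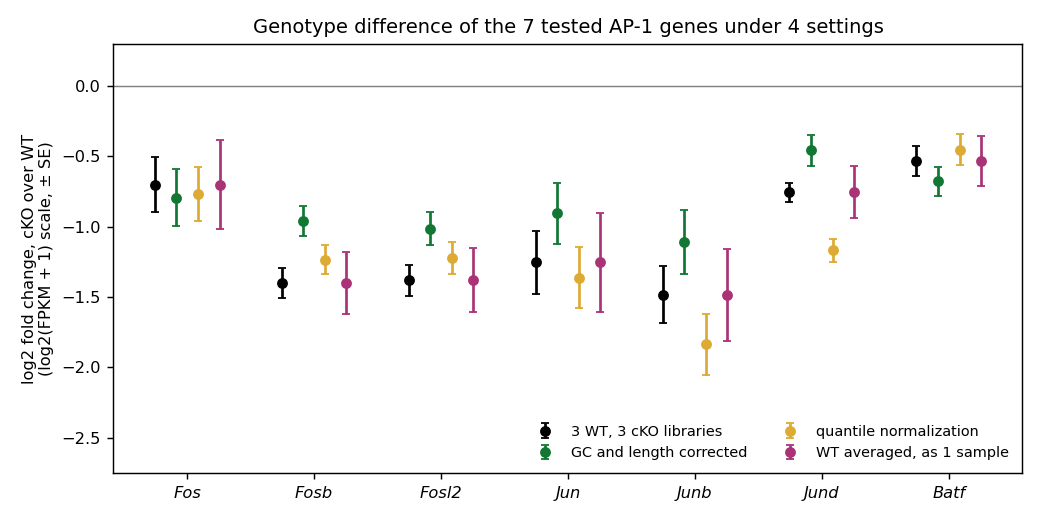
Log2 fold change (cKO over WT, log2(FPKM + 1) scale) of the 7 AP-1 genes tested, with bars of 1 standard error, under 4 settings shown in different colours. All points lie under 0, *Jund* moves from -0.46 with the GC and length trend removed to -1.17 under quantile normalization, and the bars are widest with WT counted as 1 sample.

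The summed FPKM of the 8 AP-1 genes was 453, 458 and 438 in WT and 201, 266 and 197 in cKO. The cKO mean of 222 ± 38.8 (SD, n = 3) was 49.3% of the WT mean of 450, and the groups did not overlap (two-sided exact permutation test, p = 0.1; a comparison of 3 with 3 cannot give less). In bulk libraries, fewer cells that express AP-1 and less AP-1 mRNA per cell cannot be told apart. Shares within a library do not depend on the scaling of that library, but they keep any trend with GC content and transcript length. They were not computed with that trend removed. *Jund* made up 43.7% of the sum on average in WT and 53.2% ± 6.94 (SD, n = 3) in cKO, while *Junb* made up 34.6% and 25.2% ± 4.02. *Fos* had 7.35% in WT and 9.16% ± 1.46 in cKO, and *Fosb* and *Fosl2* had 0.815% and 0.578% in WT and 0.346% and 0.170% in cKO. For these 5 genes the WT and cKO libraries did not overlap, with p = 0.1 by the exact permutation test and 0.16 after Benjamini-Hochberg adjustment over the 8 genes, so the shares cannot pass the threshold in this design. A lack of overlap was common, since the levels of 33.3% of all genes tested lay wholly lower in cKO and 39.2% wholly higher. The shares are parts of the same sum, so a lower share of *Junb* goes with higher shares of other genes. The shares of *Jun* (10.99% and 9.28%), *Batf* (1.91% and 2.61%) and *Atf3* (0.0463% and 0.0171%) overlapped between the genotypes. The *Jund* share was 58.1% and 56.2% in cKO 1 and cKO 3 but 45.2% in cKO 2, close to the highest WT share of 44.5%.

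**Figure D3:**
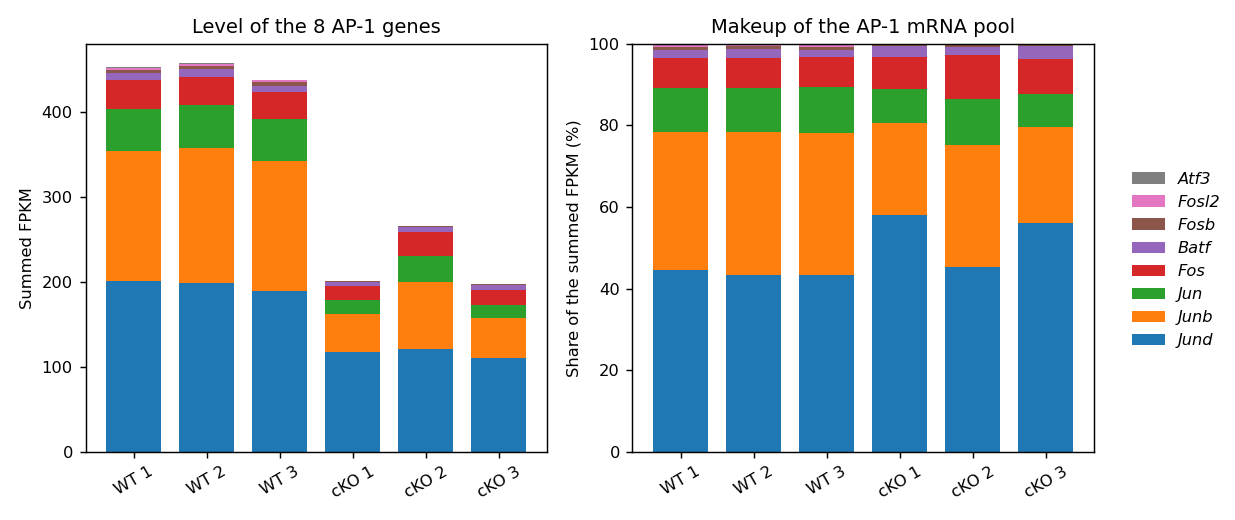
Stacked bars of the summed FPKM of the 8 AP-1 genes in each library (left) and of each gene's share of that sum in percent (right). The sums are 438 to 458 in WT and 197 to 266 in cKO, and the *Jund* share is above 56% in cKO 1 and cKO 3 but 45.2% in cKO 2.

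Because AP-1 proteins act as dimers, ratios between member mRNAs within a library were also compared. The ratio of *Jun* to *Fos* was 1.46, 1.49 and 1.53 in WT and 1.03, 1.06 and 0.934 in cKO. It was thus lower in every cKO library, cKO 2 included, and the reduction of *Jun* was larger than that of *Fos* in each. The gap between the 2 genes depended on the processing. With the GC and length trend removed, the log2 fold changes were -0.91 (SE 0.22) for *Jun* and -0.79 (SE 0.20) for *Fos*. The ratios were not computed with that trend removed. The ratio of *Junb* to *Jun* was 3.10, 3.21 and 3.14 in WT and 2.75, 2.60 and 2.86 in cKO. The ratio of *Junb* to *Jund* was 0.760, 0.807 and 0.810 in WT and 0.387, 0.660 and 0.415 in cKO. These 3 ratios did not overlap between the genotypes, although for *Junb* to *Jund* the 3 cKO libraries spread over a wider range than the distance of cKO 2 from WT. Among the levels of all genes tested, 33.3% lay wholly lower in cKO and 39.2% wholly higher. The ratio of *Fos* to *Jund* was 0.167 to 0.169 in WT and 0.137, 0.238 and 0.156 in cKO, and that of *Jun* to *Jund* was 0.245 to 0.258 in WT and 0.141, 0.253 and 0.145 in cKO. These 2 ratios overlapped or lay on both sides of WT, through cKO 2. No test was made on the ratios.

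Library cKO 2 differed from the other cKO libraries in most AP-1 genes. Its FPKM was 1.87 times the mean of cKO 1 and cKO 3 for *Jun*, 1.74 times for *Junb*, 1.73 times for *Fos*, 2.07 times for *Fosl2* and 1.41 times for *Fosb*, but 1.06 times for *Jund* and 0.934 times for *Batf*. It held the highest cKO value in 6 of the 7 AP-1 genes tested and in 26 of 31 other immediate early genes, against 37.3% of all genes tested. Of all genes tested, 6.70% were at least 1.5 times higher in cKO 2 than in the mean of the other cKO libraries. *Nr4a1*, an orphan nuclear receptor gene induced by T cell receptor signals, had an FPKM of 27.7, 54.1 and 27.0 in cKO 1, 2 and 3 and a mean of 80.9 in WT. *Egr1*, a zinc finger gene induced by ERK, ran the other way, at 10.8, 7.58 and 8.73 against a WT mean of 24.7. The immediate early genes therefore did not move as 1 block between the cKO libraries. cKO 2 had the depth of the WT libraries, whereas cKO 1 and cKO 3 were shallower; the part of depth or of the handling of a library in these values was not tested.

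**Figure D4:**
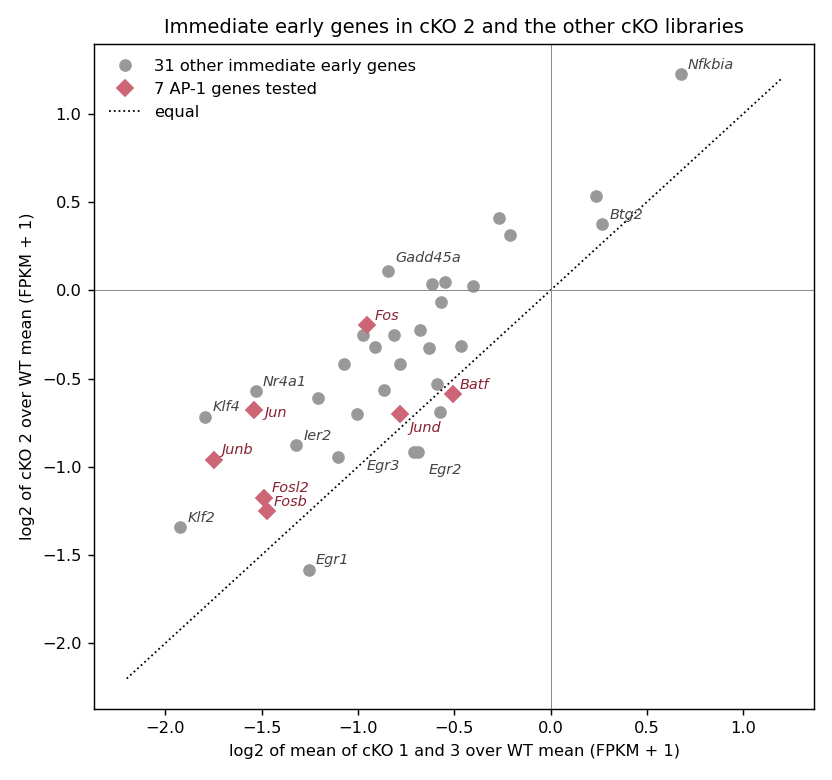
Log2 ratio to the WT mean (FPKM + 1) in the mean of cKO 1 and cKO 3 (x axis) and in cKO 2 (y axis) for the 7 AP-1 genes tested (red diamonds) and 31 other immediate early genes (grey points), with a dotted line of equality. *Fos*, *Jun*, *Junb*, *Fosl2* and *Fosb* lie above the line, *Jund* and *Batf* lie near it, and *Egr1*, *Egr2* and *Egr3* lie below it.

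Most of the other genes of the immediate early response were lower in cKO. Of 31 tested apart from the AP-1 genes, 22 were lower and 3 higher at an adjusted p under 0.05, and 6 were not called, with a median log2 fold change of -0.63 against 0.039 for all genes tested. *Egr3* and *Nr4a2* entered this count through the WT libraries alone. The largest decreases were those of *Klf2* (-1.73), a regulator of thymocyte egress, *Klf4* (-1.43), which restrains proliferation, and *Egr1* (-1.37). The higher genes were *Nfkbia* (0.82), which encodes the NF-kB inhibitor IkBa, *Klf6* (0.33) and *Btg2* (0.30), an antiproliferative gene. *Dusp6*, a feedback phosphatase of ERK, had an FPKM of 15.3 to 15.9 in WT and of 13.2, 19.6 and 13.4 in cKO (limma adjusted p = 0.830). With WT counted as 1 sample, 5 of the 31 were called lower and 0 higher in limma, and under quantile normalization 25 were lower and 1 higher.

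Upstream of AP-1, serum response factor and its partners, which bind the *Fos* serum response element, were mostly lower. Of 6 genes, 5 were lower and 0 higher, with a median log2 fold change of -0.48. *Mkl1*, a coactivator that responds to actin, had -0.93, *Srf* itself -0.60 and the ternary complex factor gene *Elk3* -0.54, whereas *Elk1* had -0.096 (limma adjusted p = 0.451). With the GC and length trend removed, 3 of the 6 were lower, and with WT counted as 1 sample 1 was. The Ras and MAP kinase genes were divided. Of 29 tested, 12 were lower and 3 higher, 41.4% lower against 29.8% of all genes. The largest decreases were those of *Mapk11*, which encodes p38 beta (log2 fold change -1.45), *Rps6ka4*, which encodes the kinase MSK2 (-0.91), and *Map3k3* (-0.78). *Rps6ka3*, which encodes the kinase RSK2, was among the higher genes (0.31). Among the JNK genes, *Mapk9* was lower (-0.37) and *Mapk8* had -0.0060 (limma adjusted p = 0.974). All 3 higher kinase genes lost that call under the same FPKM total, where 26 of 29 were lower and 0 higher.

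Of the other bZIP genes that can pair or compete with AP-1 proteins, 21 were tested, and 10 were lower and 4 higher in cKO (median log2 fold change -0.24). *Bach2*, a repressor that binds AP-1 sites in T cells, averaged 2.59 FPKM in the WT libraries and 0.649 ± 0.0656 (SD, n = 3) in cKO, so that it too was tested through WT alone, with a log2 fold change of -1.12 (limma adjusted p = 0.000147). *Jdp2*, a repressive partner of Jun, had -1.03 and *Cebpb* -0.93. *Nfe2l2*, which encodes the antioxidant regulator NRF2, was higher (0.75), as were *Cebpg* (0.42) and *Creb1* (0.41), whose protein binds the CRE. *Fosl1*, *Batf2* and *Batf3*, the other Fos and Batf genes, were under an FPKM of 1 in every library. Under the same FPKM total, which lowers genes in cKO alike, 17 were lower and 1 higher.

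Among partners, ligases and cofactors of AP-1 proteins, 6 of 15 genes were higher and 4 (26.7%) lower in cKO. Of all genes tested, 35.8% were higher and 29.8% lower, so the list lay close to the background. Its median was 0.096, which turned to -0.11 under quantile normalization. The NFAT genes, whose proteins bind DNA together with AP-1, were split, with *Nfatc1* at -0.86 and *Nfatc2* at -0.76, both lower, and *Nfatc3* at 0.35, higher. *Crebbp*, the gene of the coactivator CBP, was lower (-0.99). *Cops5*, which encodes Jab1, a subunit of the COP9 signalosome that binds c-Jun, was higher (0.73), as was *Det1* (0.59), a component of a ligase complex that targets c-Jun. No gene of this list was higher under the same FPKM total. Of 17 genes of factors that act on AU-rich elements or in deadenylation, 8 (47.1%) were lower and 5 higher, against the same 29.8% and 35.8%. *Zfp36l2* (-1.38), *Cnot3* (-1.34) and *Khsrp* (-1.18) fell most, and *Parn* (0.64), *Cnot2* (0.49) and *Cnot1* (0.33) were among the higher genes. Those 5 increases became 2 under quantile normalization and 0 under the same FPKM total.

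**Figure D5:**
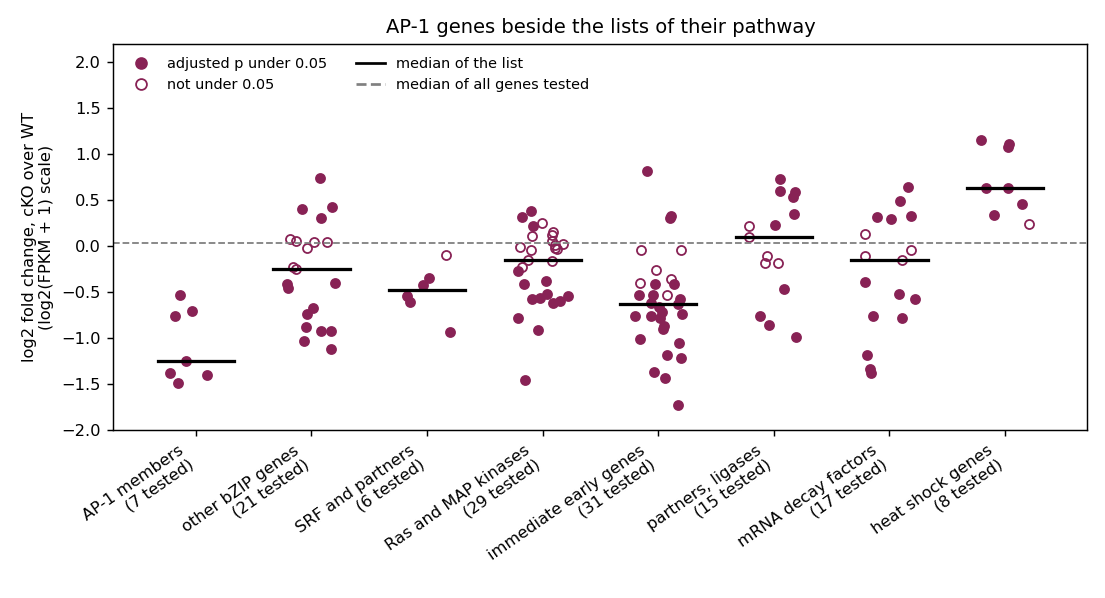
Log2 fold change (cKO over WT, log2(FPKM + 1) scale) of each tested gene of the AP-1 family and of 7 related lists, filled where the adjusted p from limma was under 0.05, with the list median as a bar and the median of all genes tested, 0.039, as a dashed line. The 7 AP-1 genes lie between -1.48 and -0.53, while the lists of other bZIP genes, kinases, partners and decay factors spread to both sides of 0.

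AP-1 mRNAs are known to be induced by tissue dissociation and heat, so a list of heat shock genes was read beside them. Of 8 tested, 7 were higher in cKO and 0 lower, with a median of 0.63. Of all genes tested, 35.8% were higher and 29.8% lower. The largest increases were those of *Hspe1* (1.15), *Hsp90aa1* (1.11) and *Hspa8* (1.08). The stress-inducible genes *Hspa1a* and *Hspa1b* were too low to be tested. *Hspa1b* had an FPKM of 0.328, 0.368 and 0.257 in WT and of 1.18, 1.45 and 0.960 in cKO, with no overlap. *Hspa1a* had 0.275, 0.111 and 0.0923 in WT and 0.174, 0.885 and 0.285 in cKO, which overlapped. The part of cell stress in the AP-1 values was not tested. Of the 8 tested, quantile normalization left 6 higher and 1 lower, and with equal FPKM totals 3 higher and 2 lower. In the size-factor fit the tested AP-1 and heat shock genes thus lay on opposite sides of 0. Under these other scalings heat shock genes were called in both directions.

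The DP identity of the libraries was checked by marker genes. Of 10 DP markers all were expressed in all libraries, among them *Cd8b1* (1240 to 1275 in WT and 1810 to 2603 in cKO), *Cd4* and *Rag1*. In the size-factor fit 5 of them were higher and 3 lower in cKO, but quantile normalization turned this to 1 higher and 6 lower. Of 12 markers of mature single-positive cells, 9 were lower and 1 was higher in cKO, with a median of -1.42. *S1pr1*, *Cd40lg* and *Zbtb7b* were under an FPKM of 1 in every cKO library and were tested through WT alone. Without any 1 WT library these 3 were not tested, and 6 of 9 were lower. On average *Ccr7* fell from 15.5 to 1.69 FPKM, *S1pr1* from 4.50 to 0.179 and *Itgb7* from 15.6 to 3.99, and *Zbtb7b* was at 2.72 to 3.05 in WT and 0.0649 to 0.300 in cKO. The summed FPKM of the 12 was 376 to 379 in WT and 302 to 439 in cKO, with *Slfn2* and *H2-Q2* among the most abundant. *Klf2* is in this list and among the immediate early genes. Mature cell markers thus fell in the same libraries as the AP-1 genes, while cKO 2 held the highest cKO value in 5 of the 12. Their part in the AP-1 values was not tested.

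Most markers of other cells were low. Of 7 B cell markers 6 were under an FPKM of 1 in all libraries, the exception being *Cd79b*, and of 11 markers of epithelium, fibroblasts and endothelium 9 were, with *Krt5*, *Foxn1* and *Col3a1* at 0. The 11 macrophage and dendritic cell markers summed to 15.0 to 18.4 in WT and 12.8 to 17.4 in cKO, with *Csf1r* under 0.168. The markers that were expressed included some called higher in cKO, namely *Cd79b* (mean FPKM 22.4 in WT and 33.01 in cKO, limma adjusted p = 0.0164), *Pecam1* (44.4 and 52.4, limma adjusted p = 0.0181) and *Tyrobp* (2.02 and 3.54, limma adjusted p = 0.0188). Double-negative thymocyte markers summed to 16.6 to 17.6 in WT and 9.68 to 12.2 in cKO, and 3 of 4 tested were lower. *Hba-a1*, a hemoglobin gene, was at 0.416 to 1.00 in WT and at 10.2, 3.27 and 10.4 in cKO, thus lowest of the cKO libraries in cKO 2, where most AP-1 genes were highest. The part of these in the AP-1 values was not tested.

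Gene structure and GC content, which the choice of the genes did not use, varied among the AP-1 genes. The main transcripts of *Jun*, *Junb* and *Jund* have 1 exon, whereas those of the others have 3 or 4. Of all tested protein-coding genes, 29.2% of 236 genes with 1 exon were lower in cKO, against 29.7% of the others. The GC content of the 8 main transcripts was 51.9% for *Fos* to 67.1% for *Jund*, all above the median of 50.1% of tested protein-coding genes, though *Fos* and *Atf3* (52.2%) only slightly. Genes with a GC content of 50% or more were lower in 43.6% of cases and those under 50% in 15.7%. The nonamer of the AU-rich element, shown above for *Fos* and *Fosl2*, was in 779 tested genes, of which 34.5% were lower in cKO, against 29.3% of those without it. These are descriptions over genes, which are not independent replicates.

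The genes whose pattern over the 6 libraries was most like that of the AP-1 family were found by the root mean square difference between their log2 ratio to the WT mean and the median of the 7 AP-1 genes tested. That median was between -0.019 and 0.017 in WT and was -1.35, -0.71 and -1.499 in cKO 1, 2 and 3. The 5 nearest genes outside the lists were *Ulk3* (0.032), *Gtpbp2* (0.044), *Yrdc* (0.057), the noncoding *5830416P10Rik* (0.064) and *Ubp1* (0.074), and 25 genes lay under 0.1. *Gtpbp2* had an FPKM of 45.8, 44.5 and 44.2 in WT and of 16.5, 27.5 and 16.3 in cKO. Like *Jun* and *Junb*, it was lower in all cKO libraries and least so in cKO 2, which follows from how it was chosen. *Jund* and *Batf*, with cKO 2 at 1.06 and 0.934 times the mean of cKO 1 and cKO 3, did not stand apart in cKO 2.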

How the data were processed

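The authors sorted DP thymocytes, made poly(A)-enriched stranded libraries with the NEBNext Ultra II Directional kit, sequenced them as paired-end reads on a NovaSeq instrument, mapped the reads to mm10 with TopHat and deposited FPKM values computed with Cufflinks, 1 per gene symbol and library. Versions, the gene annotation and the strand setting were not given in the sources used here. Counts were not used here, so the test differs from the authors' count test.

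FPKM were divided by median-of-ratios size factors (1.00 to 1.01), and log2(FPKM + 1) was fitted with limma 3.58.1 (R 4.3.3; lmFit, eBayes with trend), keeping the 10326 genes for which at least 3 libraries reached an FPKM of 1, with Benjamini-Hochberg adjustment over all genes tested and a threshold of 0.05. The fit was also run on simulated data with independent libraries and the same spread in both genotypes. That run does not cover the unequal spread of the WT and cKO libraries seen here. Shares and sums were compared by two-sided exact permutation tests. SE is the standard error from limma. Depth was estimated from 2614 single-transcript genes, assuming fragments of 200 nucleotides, and covers counting error only. Genes were placed with GENCODE vM21 on GRCm38, which held 22110 of 23183 symbols directly and 664 through synonyms. Promoters are from RefSeq, GRCm38.p6, and all 8 genes matched, with *Jund* and *Fosl2* among those whose start differs from GENCODE. Python 3.11.15 was used for the summaries.

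The family members, the gene lists and the tests were chosen with earlier results of these data known. All 8 members are named; from each list, up to 3 genes called in each direction with the largest changes and no overlap between genotypes were named, and the other genes given with values (*Dusp6*, *Elk1*, *Mapk8*, *Mapk9*, *Nr4a1*, *Egr3*, *Nr4a2*, *Nfatc3*, *Hspa1a*, *Hspa1b*, *Cd40lg*, *Zbtb7b* and *Prdx2*) were chosen after their values were seen. A few genes that this rule would name are not reported here. Alternatives were another pseudocount, no filter on low values, other scalings, no trend, WT as 1 sample, a GC and length correction by splines of 5 degrees of freedom, a replicate block, and each library left out.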

Additional observations from a re-analysis of the deposited data

How the results depend on the processing

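The direction of the 7 AP-1 genes tested was the same under each alternative that gave a value. Counting WT as 1 sample had the largest effect. It called 4 AP-1 genes lower in place of 7 (2 in place of 5 without *Fosb* and *Fosl2*, tested through WT alone) and 1645 genes in all in place of 6766, and *Fos* (log2 fold change -0.70, limma adjusted p = 0.143), *Jun* (-1.25, 0.0543) and *Batf* (-0.53, 0.0767) were no longer called. The log2 fold changes are the same by construction, and the p-values rest on fewer samples.

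With each library left out in turn, 5 to 7 AP-1 genes were called lower, the lower number because *Fosb* and *Fosl2* did not pass the filter without any 1 of the WT libraries, and 5404 to 7637 genes were called in all. The log2 fold change ranged from -0.94 to -0.55 for *Fos*, from -1.53 to -1.10 for *Jun*, from -1.74 to -1.35 for *Junb*, from -0.78 to -0.72 for *Jund* and from -0.61 to -0.45 for *Batf*. *Fosb* and *Fosl2* ranged from -1.47 to -1.30 and from -1.48 to -1.32. *Fos* was not called without cKO 1 (-0.55) or without cKO 3 (-0.60). The difference in share, cKO minus WT in percentage points, ranged from 7.02 to 13.5 for *Jund*, from -11.7 to -8.01 for *Junb*, from -2.80 to -1.16 for *Jun* and from 0.994 to 2.41 for *Fos*. For *Batf* it ranged from 0.417 to 0.983, for *Fosb* from -0.499 to -0.432, for *Fosl2* from -0.435 to -0.392 and for *Atf3* from -0.0464 to -0.0208. Leaving *Jund* out of the sum turned the difference of the *Jun* share from -1.71 to 0.204 points (exact permutation test, p = 0.9), so no direction is given for it; the smaller sum is the construction of that alternative.

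Replicate numbers are given in both genotypes, but same-numbered libraries did not deviate together (correlations of -0.022, 0.038 and 0.031 over genes), so they do not pair the libraries. With a replicate block, 6467 genes and 7 AP-1 genes were called, and with the block and the GC and length correction 5348 and 7. FPKM carry no counts, so depth limits above all *Atf3*, *Fosb* and *Fosl2*.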

Other observations

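Over all tested genes with a RefSeq promoter window, the share lower in cKO was described for the motifs searched. Of 2618 genes with the CRE core TGACG 29.3% were lower, and of the 5305 without it 30.5%. Of 97 genes with a CArG box 41.2% were lower, against 29.99% of those without it, and of 823 genes with a site of the EGR kind, GCGNGGGCG, 40.7% were lower, against 28.9%. *Fosb* and *Fosl2* are the AP-1 genes with an EGR site in the window, but the *Fosl2* window lies downstream of its GENCODE start. Genes with a GC-rich transcript were lower more often as well, and the part of GC content in these shares was not tested.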
